A study of Cavia porcellus with 6 samples.

Results

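The bone morphogenetic protein (BMP) genes described here are 4 ligands (Bmp2, Bmp4, Bmp5 and Bmp7), 3 antagonists (Chrd, Grem1 and Fst) and 3 target genes (Id1, Id2 and Id3), measured by RNA sequencing in the back of the guinea pig (Cavia porcellus) sclera, the fibrous coat of the eye. They were taken by symbol from the table of read counts per gene, and all 10 were among its 32193 genes. The study compared 3 right eyes of form-deprived animals (FDM), in which an eye is kept from seeing a sharp image to induce myopia, with 3 right eyes of the control group (NC), both sampled on day 28 of induction. The sources used here do not give strain, age, the means of deprivation or the handling of the control eyes. Since each group holds right eyes only, the 6 libraries are treated as 6 animals.

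BMPs are secreted dimers that bind type I and type II receptor kinases, which phosphorylate SMAD1, SMAD5 and SMAD9. These enter the nucleus with SMAD4 and switch on direct targets, of which the ID genes are the best known. ID proteins lack a DNA-binding domain and hold E proteins, the partners of tissue-specific helix-loop-helix factors, away from DNA. Chordin and gremlin bind BMPs outside the cell and keep them from their receptors, and follistatin does the same mainly to activins and also to some BMPs. In the eye wall BMPs are studied as signals to scleral fibroblasts and their matrix, and in chick the pigment epithelium alters its BMP transcripts when the focus of the image changes.

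The libraries held 12048216 to 16181865 counts in FDM and 10377397 to 17534982 in NC, and the 10 genes together took 4358 to 9377 and 3926 to 10214 of them. The libraries numbered 1 stood apart from the others. FDM 1 had no count for 24.3% of the 16348 genes tested and NC 1 for 15.0%, and Bmp5 was at 0 in both and Grem1 in FDM 1. All 6 fibroblast markers (Col1a1, Col1a2, Col3a1, Dcn, Lum and Pdgfra) had counts in every library, and in CPM (counts relative to the library size scaled by edgeR's TMM method) they summed to between 14730 and 58040 in FDM and between 5182 and 50540 in NC. Markers of other tissues were present too. Photoreceptor markers summed to between 201.6 and 10690 CPM in the FDM libraries and between 423.9 and 23070 CPM in the NC libraries. The 5 skeletal muscle markers in the table summed to between 7875 and 39340 CPM in the FDM libraries and between 62.0 and 17030 CPM in the NC libraries. In none of 12 marker lists did the summed level of all FDM libraries lie on one side of all NC libraries. Among single markers 3 did so, the macrophage gene Cd68 above NC and the pigment epithelium gene Rgr and the cartilage gene Matn3 below it. Of all genes tested, 2.73% had all FDM libraries above all NC libraries and 2.81% had them all below. Matn3 had just 0, 5 and 0 counts in FDM 1, 2 and 3. In tissue RNA, fewer cells of a type and less RNA per cell cannot be told apart.

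Of the 10 genes Chrd was the one whose FDM and NC libraries did not overlap. None of the 10 passed the test across all genes. The RNA levels of the ID genes, targets of BMP signalling, differed between the groups by less than their spread between libraries. BMP signalling itself was not measured. With edgeR's quasi-likelihood test and Benjamini-Hochberg adjustment, 0 of 16348 genes (0.00%) had an adjusted p below 0.05, and each of the 10 had an adjusted p of 0.999999. At an unadjusted p below 0.05 the same test gave 156 genes (0.954%), 1 of them among the 10. That count of 156 became 240, 246 or 536 when FDM 1, 2 or 3 was left out, and 148, 84 or 338 when NC 1, 2 or 3 was. DESeq2 called 24 genes at adjusted p below 0.05, 0 of them among the 10, of which Bmp5 was given no p-value. With limma-voom 0 genes were called, and 168 genes, 0 of the 10 among them, had an unadjusted p below 0.05. The log2 fold change (FDM over NC) of 9 of the 10 was above 0, which also held for 51.2% of all genes tested. It held for 5 of the 10 without FDM 3 and for 6 of the 10 without NC 2. The median of the 10 was 0.36, against 0.02 for all genes. It was 0.11 without FDM 3 (all genes -0.18), 0.06 without NC 2 (all genes 0.015) and 0.15 with total-count scaling (all genes -0.23).

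**Figure D1:**
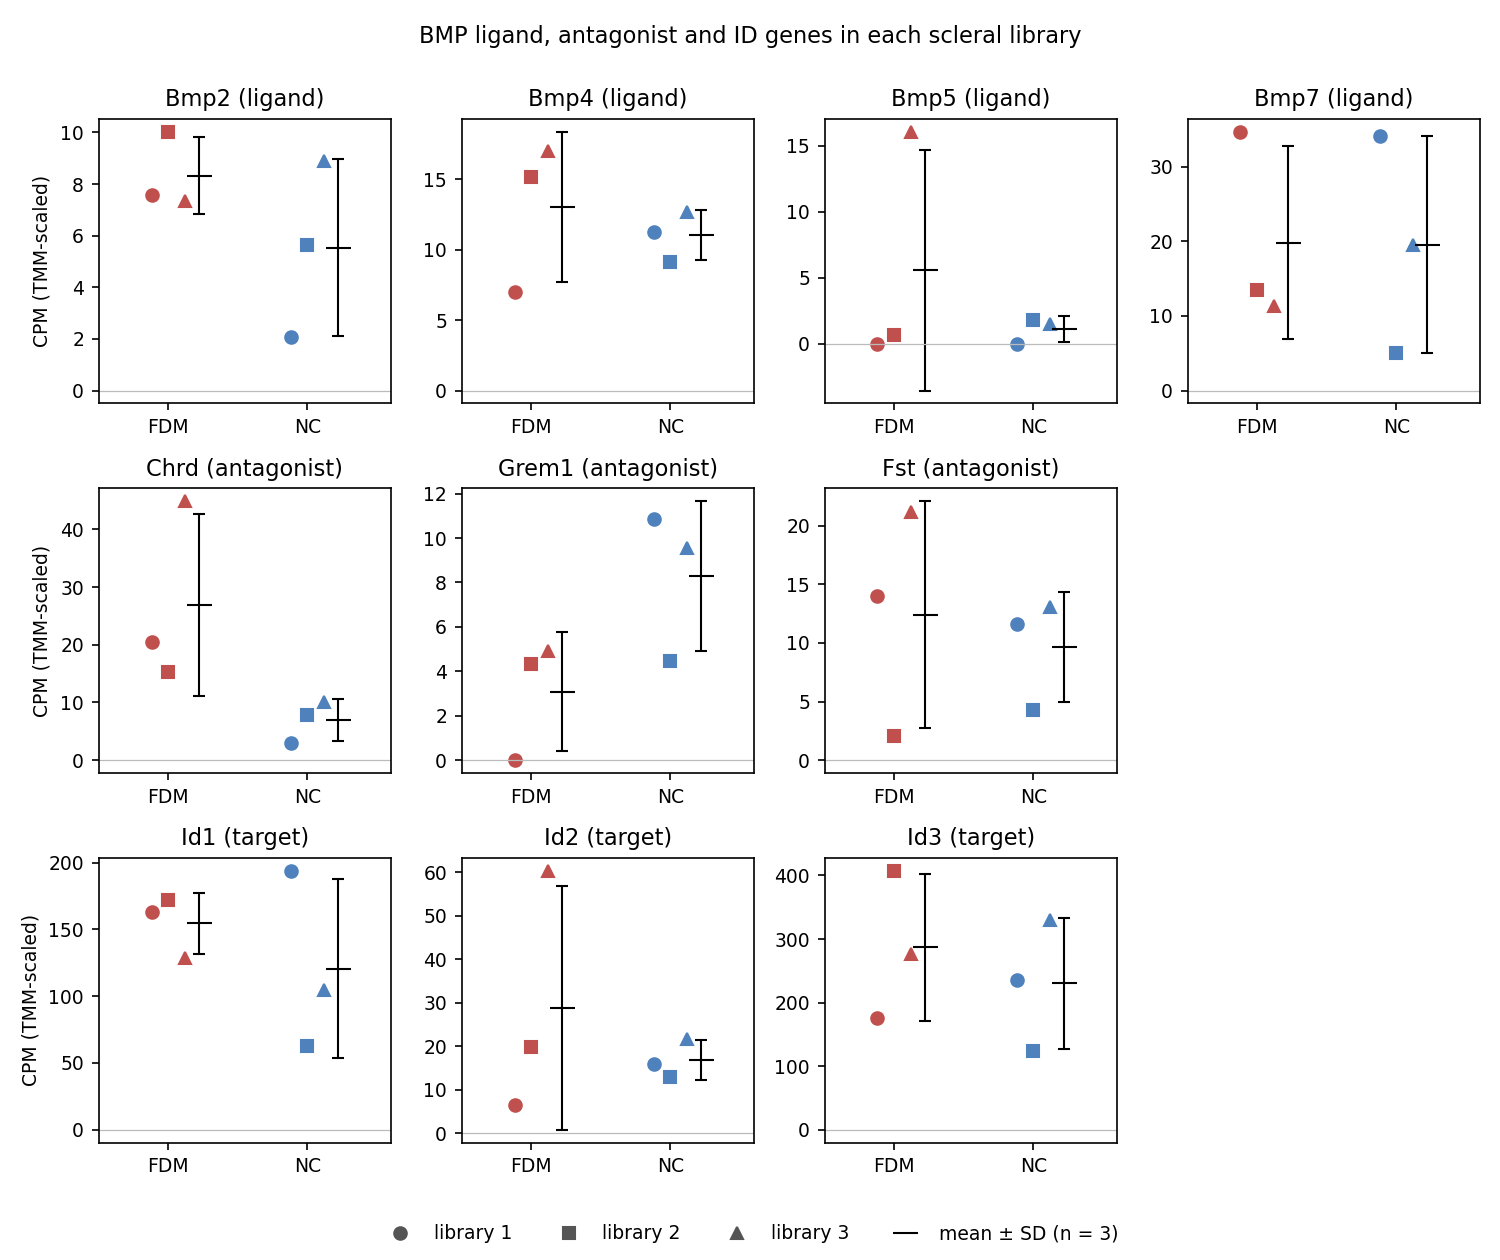
Level in CPM of each of the 10 genes in the 3 FDM (left) and 3 NC (right) libraries, one panel per gene and one row per role, with the mean ± SD beside the points and a separate axis for each gene. Chrd is the panel without overlap, with FDM at 15.2 to 44.9 CPM and NC at 2.94 to 10.2 CPM, while Bmp5 and Id2 each have a single high point in FDM 3.

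Chrd encodes chordin, which binds BMP2, BMP4 and BMP7 and is cut by tolloid proteases to let them go. It had 20.5, 15.2 and 44.9 CPM in FDM 1, 2 and 3, against 2.94, 7.74 and 10.2 CPM in NC 1, 2 and 3. The lowest FDM library thus lay above the highest NC library, also after RLE, upper-quartile and total-count scaling. Across all genes tested, 2.73% had all FDM libraries above all NC libraries. The counts behind these levels were 208, 211 and 715 in FDM and 30, 128 and 195 in NC. Chrd averaged 26.9 ± 15.8 CPM in FDM and 6.94 ± 3.68 CPM in NC (SD, n = 3 each). For Chrd the log2 fold change was 1.95 ± 0.77 (SE), with an unadjusted p of 0.0314 in edgeR's quasi-likelihood test, the 94th smallest of 16348, and an adjusted p of 0.999999. An exact two-sided permutation test of 3 against 3 libraries cannot give a p below 0.1.

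The size of the Chrd difference rested in part on FDM 3, which had the highest level. Without FDM 3 the log2 fold change was 1.28 (unadjusted p = 0.227 in edgeR's test), and it ran from 1.58 to 2.23 with any other single library left out. The unadjusted p in edgeR's test was also above 0.05 without NC 1 (0.0714), without NC 2 (0.069) and with total-count scaling (0.0684). Without both libraries numbered 1 the log2 fold change of Chrd was 1.68 (unadjusted p = 0.0535 in edgeR's test). FDM 3 also had the highest sum of fibroblast markers, 58040 CPM, but NC 1, with the lowest Chrd, had the next highest, 50540 CPM. Among markers of other cell types, Cd68 also lay higher in every FDM library, at 21.3, 29.9 and 29.4 CPM in FDM 1, 2 and 3, against 6.95, 6.71 and 9.01 CPM in NC 1, 2 and 3. Rgr lay lower in every FDM library, at 28.2, 29.0 and 38.5 CPM in FDM against 156.2, 150.7 and 41.8 CPM in NC, and so did Matn3, at 0, 0.361 and 0 CPM in FDM against 2.055, 2.66 and 2.60 CPM in NC. The summed immune markers overlapped, at 146.5, 276.8 and 100.3 CPM in FDM 1, 2 and 3, against 276.1, 70.7 and 117.7 CPM in NC 1, 2 and 3. Summed pigment epithelium markers overlapped too, at 151.5, 83.3 and 240.3 CPM in FDM against 402, 385 and 162.8 CPM in NC. Summed cartilage markers did so as well, at 330.5, 323.6 and 275.2 CPM in FDM against 531.7, 431.3 and 252.8 CPM in NC. The part of tissue make-up in the Chrd values was not tested.

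Grem1 encodes gremlin 1, a binder of BMP2, BMP4 and BMP7. It had 0, 4.33 and 4.89 CPM in FDM 1, 2 and 3, against 10.9, 4.47 and 9.53 CPM in NC 1, 2 and 3. The FDM libraries held the lower values, but NC 2 lay between FDM 2 and FDM 3, so that the groups overlapped. With total-count scaling the 3 FDM libraries lay below the 3 NC libraries. The 0 counts of FDM 1 allow a level of up to 0.296 CPM (3 counts, counting error only), in a library that lacked many genes. Grem1 averaged 3.08 ± 2.68 CPM in FDM and 8.29 ± 3.37 CPM in NC (SD, n = 3 each), and its log2 fold change was -1.42 ± 1.69 (SE). Without FDM 1 it was -0.84. Of the 10 genes Grem1 was the one with a log2 fold change below 0, and its sign held under each of the 15 alternative settings tried.

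Fst encodes follistatin, whose main ligands are activins. It had 14.0, 2.02 and 21.2 CPM in FDM 1, 2 and 3, against 11.6, 4.29 and 13.1 CPM in NC 1, 2 and 3. FDM held both the lowest and the highest of the 6 values, and the NC libraries fell between them. For Fst the log2 fold change was 0.36 ± 1.03 (SE). Leaving out FDM 3 gave -0.31 and leaving out NC 2 gave -0.02.

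Bmp2 and Bmp4 encode closely related ligands, both inducers of bone and cartilage. Bmp2 had 7.59, 10.03 and 7.34 CPM in FDM 1, 2 and 3, against 2.055, 5.62 and 8.91 CPM in NC 1, 2 and 3. NC 1 and NC 2 lay below every FDM library, but NC 3 exceeded FDM 1 and FDM 3. Bmp2 had a log2 fold change of 0.59 ± 1.15 (SE). Leaving out NC 1 gave 0.19, this being the library with the lowest value. Bmp4 had 7.0, 15.2 and 17.0 CPM in FDM 1, 2 and 3, against 11.2, 9.13 and 12.7 CPM in NC 1, 2 and 3. FDM 2 and FDM 3 lay above all NC libraries and FDM 1 below them. For Bmp4 the log2 fold change was 0.25 ± 0.78 (SE). Leaving out FDM 3 gave -0.06.

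Bmp7 and Bmp5 belong to another branch of the ligand family. Bmp7 had 34.7, 13.4 and 11.4 CPM in FDM 1, 2 and 3, against 34.0, 5.02 and 19.5 CPM in NC 1, 2 and 3. In each group the library numbered 1 was the highest, and the group means were alike at 19.8 ± 12.9 CPM in FDM and 19.5 ± 14.5 CPM in NC (SD, n = 3 each). The log2 fold change was 0.02 ± 0.80 (SE). It turned to -0.65 without FDM 1, -0.45 without NC 2 and 0.68 without NC 1. Bmp5 had 0, 0.65 and 16.1 CPM in FDM 1, 2 and 3, against 0, 1.81 and 1.51 CPM in NC 1, 2 and 3. FDM 3 alone was high, with 256 Bmp5 counts against 9 in FDM 2 and 30 and 29 in NC 2 and NC 3. With all libraries Bmp5 had a log2 fold change of 2.31 ± 2.41 (SE), which turned to -1.84 when FDM 3 was left out. The 0 counts of FDM 1 and NC 1 allow up to 0.296 and 0.294 CPM.

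The ID genes are immediate targets of SMAD1, SMAD5 and SMAD9, and Id1 is the usual reporter of BMP signalling. Id1 had 163.1, 172 and 128.4 CPM in FDM 1, 2 and 3, against 193.8, 62.6 and 104.7 CPM in NC 1, 2 and 3. The FDM values were close together and inside the range of NC. Id1 averaged 154.5 ± 23.1 CPM in FDM and 120.4 ± 67.0 CPM in NC (SD, n = 3 each), a log2 fold change of 0.36 ± 0.48 (SE). Leaving out NC 1, the highest NC library, gave 0.88, and leaving out NC 2, the lowest, gave 0.03. Id3 had 176.2, 407.3 and 277 CPM in FDM 1, 2 and 3, against 236.2, 123.8 and 330.3 CPM in NC 1, 2 and 3. The groups overlapped widely, and the log2 fold change was 0.32 ± 0.52 (SE). It was -0.03 when FDM 2 was left out and -0.02 when NC 2 was.

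Id2 had 6.51, 19.8 and 60.3 CPM in FDM 1, 2 and 3, against 15.8, 12.9 and 21.8 CPM in NC 1, 2 and 3. A single library, FDM 3, lay above NC, and FDM 1 lay below it. Its log2 fold change was 0.78 ± 0.78 (SE). With FDM 3 left out it was -0.42. Id1 and Id3 are also expressed in endothelial cells, in which BMP9 and BMP10 act through the receptor encoded by Acvrl1. The 7 endothelial markers summed to 3649, 1902 and 764.3 CPM in FDM 1, 2 and 3, against 1599, 631.4 and 1659 CPM in NC 1, 2 and 3. NC 2, with the lowest endothelial sum, also had the lowest Id1 and Id3, while the FDM library of lowest sum, FDM 3, had the lowest Id1 but not the lowest Id3. Kdr and Tek of that list were at 0 in FDM 1. The part of endothelial RNA in the Id1 and Id3 values was not tested.

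**Figure D2:**
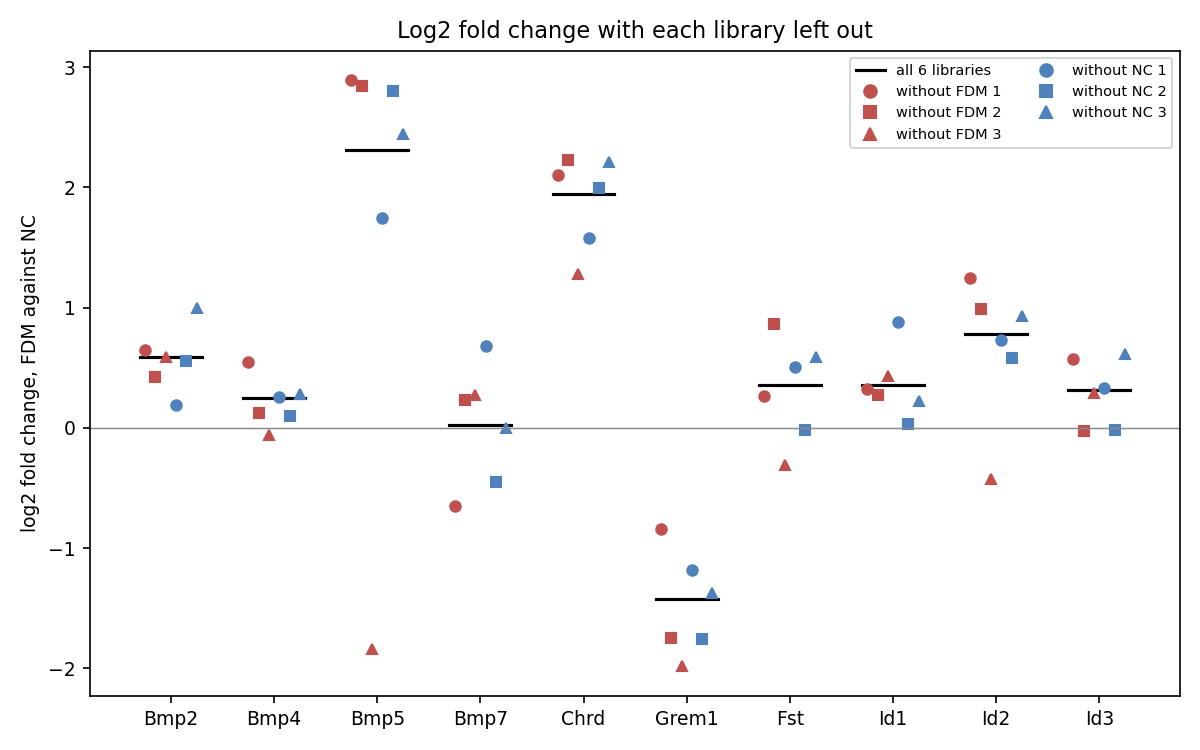
Log2 fold change (FDM over NC) of each of the 10 genes with all 6 libraries (black bar) and with each library left out in turn (points). The points of Chrd lie between 1.28 and 2.23 and those of Grem1 between -1.98 and -0.84, while Bmp5 and Id2 cross 0 without FDM 3, at -1.84 and -0.42.

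How far the 10 genes varied within a group differed among them. The pooled SD of log2 CPM within groups was 0.51 for Bmp4, 0.60 for Id1, 0.67 for Id3 and 0.76 for Bmp2, against a median of 0.95 over all genes tested. Chrd had 0.86, Id2 1.16, Bmp7 1.17 and Fst 1.39. Grem1 and Bmp5, the genes with libraries at 0, had 2.13 and 2.88. The log2 fold change of Chrd was thus more than its SD within groups, and that of each of the other 9 genes was less.

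Ratios of counts within a library do not depend on how libraries are scaled, although their size reflects gene length as well as abundance. Chrd counts per Bmp4 count were 2.93, 1.0 and 2.64 in FDM 1, 2 and 3, against 0.261, 0.848 and 0.802 in NC 1, 2 and 3. All 3 FDM ratios lay above all 3 NC ratios, though FDM 2 exceeded the highest NC library only narrowly. This ratio reuses the Chrd values given above. Against Bmp7, another ligand bound by chordin, the groups overlapped. FDM 1 had fewer Chrd than Bmp7 counts (208 and 352), whereas NC 2 had more (128 and 83). Chrd counts per Fst count overlapped, at 1.465, 7.536 and 2.115 in FDM 1, 2 and 3, against 0.2521, 1.803 and 0.7769 in NC 1, 2 and 3. The summed counts of the 3 antagonists per summed count of the 4 ligands gave 0.70, 0.55 and 1.37 in FDM, against 0.537, 0.765 and 0.769 in NC. FDM 3 alone lay above NC in this ratio, and FDM 1 and FDM 2 fell within the NC range. Summed over the 4 ligands the level was 46.8 ± 6.62 CPM in FDM and 37.2 ± 13.7 CPM in NC, over the 3 antagonists 42.4 ± 25.6 and 24.9 ± 8.14 CPM, and over the 3 ID genes 470.2 ± 126.7 and 367.3 ± 145.6 CPM (SD, n = 3 each). Each difference between these means was smaller than the larger SD of its pair.

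The ID genes kept no fixed proportion to each other. Id3 counts per Id1 count were 1.08, 2.37 and 2.16 in FDM 1, 2 and 3, against 1.22, 1.98 and 3.16 in NC 1, 2 and 3. Id2 counts per Id1 count were 0.040, 0.115 and 0.470 in FDM 1, 2 and 3, against 0.082, 0.206 and 0.208 in NC 1, 2 and 3. In both groups the library numbered 1 had the lowest value of each ratio, and the groups overlapped.

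**Figure D3:**
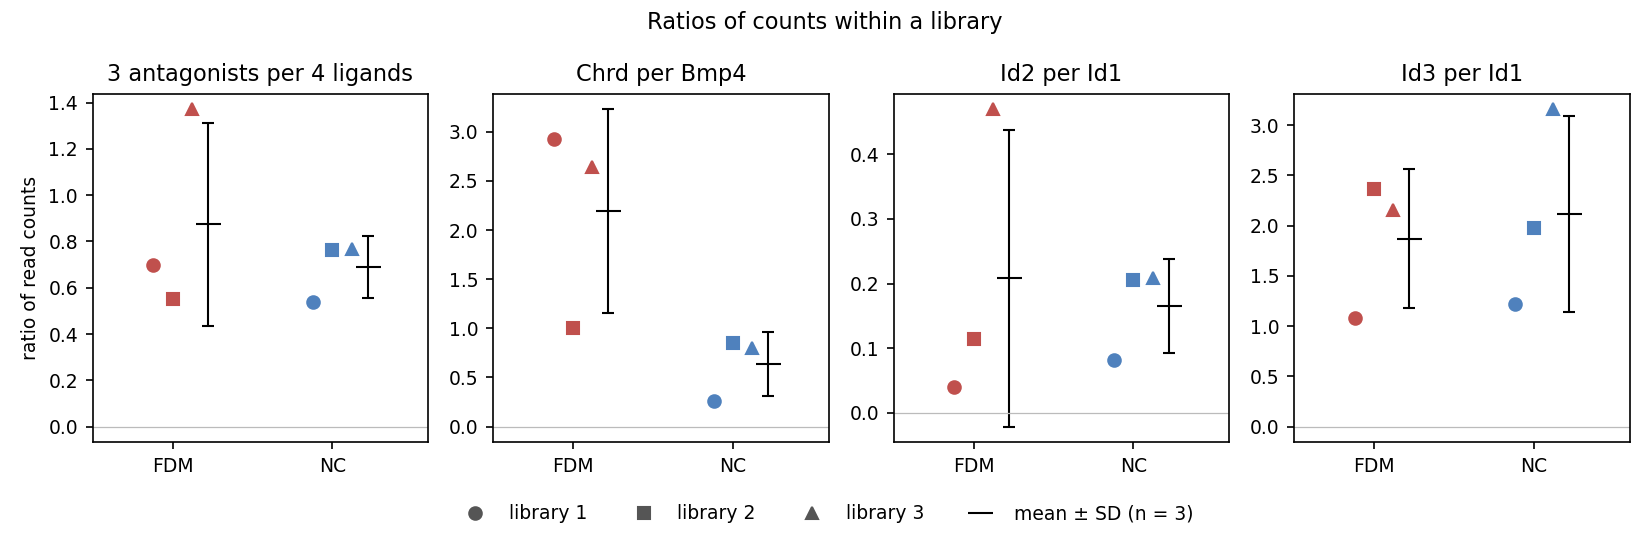
Ratios of read counts within each library, from left to right for the 3 antagonists per 4 ligands, Chrd per Bmp4, Id2 per Id1 and Id3 per Id1, with FDM left and NC right in each panel and the mean ± SD beside the points. Chrd per Bmp4 is the one of these panels without overlap, at 1.0 to 2.93 in FDM and 0.261 to 0.848 in NC.

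The likeness of profiles was measured as the root mean square difference in log2 CPM over the 6 libraries, each gene centred on its own mean, a measure that favours genes of small variation. Among the 45 pairs of the 10 genes it ran from 0.371 to 3.12, with a median of 1.33. The closest pair was Bmp4 and Id3, a ligand and a target, followed by Id1 and Id3 at 0.539 and Bmp4 and Id2 at 0.587. The most distant was Bmp5 and Bmp7. Among all tested genes with a symbol, those most like Chrd were Ahsa1, an HSP90 co-chaperone gene (0.251), Hspa5, the main chaperone gene of the endoplasmic reticulum (0.339), and Ccn5, a matricellular protein gene (0.358). Those most like Id2 were Adgrg6, an adhesion receptor gene (0.173), Dab2, an endocytic adaptor gene (0.218), and Smad7 (0.225). Those most like Bmp4 were Entrep3 (0.097), Srd5a3 (0.104) and Uggt1 (0.104). For Id1 they were Pus7 (0.090), Evc (0.097) and Mthfs (0.107).

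The wider BMP pathway was described from a list of 70 genes in 5 roles that includes the 10, of which 68 were in the table and 59 had enough counts to be tested. With edgeR's quasi-likelihood test 0 of the 59 passed in either direction (0.00% of all genes), and Chrd was the 1 gene with an unadjusted p below 0.05. Without the 10, 34 of 49 log2 fold changes were above 0, with a median of 0.19. Over all 59 the median was 0.22 and 43 were above 0. These were -0.03 and 27 without FDM 3, 0.09 and 37 of 62 without NC 2, and 0.03 and 31 with total-count scaling. The median of all genes in these settings was -0.18, 0.015 and -0.23, in that order.

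Receptors and co-receptors had 10 of 14 log2 fold changes above 0, with a median of 0.18 and 0 past edgeR's test. Rgma, a BMP co-receptor gene, had 161.3, 117.7 and 66.3 CPM in FDM 1, 2 and 3, against 19.9, 55.0 and 74.8 CPM in NC 1, 2 and 3. NC 3 lay above FDM 3, and the log2 fold change was 1.21 ± 0.56 (SE; unadjusted p = 0.0582 in edgeR's test), falling to 0.41 without both libraries numbered 1. Tgfbr3, which encodes betaglycan, had 52.5, 86.0 and 238.3 CPM in FDM 1, 2 and 3, against 60.0, 34.3 and 79.0 CPM in NC 1, 2 and 3. The fold change of 1.12 ± 0.60 (log2, SE) came to 0.21 with FDM 3 left out. The endothelial receptor genes Eng and Acvrl1 had 0.30 ± 0.65 and -0.13 ± 0.42 (SE). Eng had -0.21 and -0.08 without FDM 1 and NC 2, and Acvrl1 had 0.03 and 0.11 without FDM 2 and NC 1.

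Among the intracellular mediators, 5 of 8 log2 fold changes were above 0, with a median of 0.23 and 0 past edgeR's test. The receptor-regulated Smad5 had -0.63 ± 0.56 and the shared partner Smad4 0.28 ± 0.46 (SE). Smad5 had -0.32 with FDM 1 left out and -0.99 with FDM 3 left out. Smad4 had 0.47 with FDM 1 left out, 0.010 with FDM 3 left out, 0.088 with NC 1 left out and 0.033 with total-count scaling. Smad7, an inhibitory SMAD induced by both BMP and TGF-beta signalling, had 6.41, 18.2 and 59.0 CPM in FDM 1, 2 and 3, against 12.6, 17.2 and 19.6 CPM in NC 1, 2 and 3. As with Id2, FDM 3 alone lay above NC. Its log2 fold change was 0.76 ± 0.79 (SE). With FDM 3 left out it was -0.50. The ubiquitin ligase gene Smurf1 had -0.26 ± 0.65 (SE), with 0.11 without FDM 2 and 0.36 without NC 1.

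Antagonists and modulators other than Chrd, Grem1 and Fst had 10 of 14 log2 fold changes above 0, with a median of 0.17 and 0 past edgeR's test. Bmp1, a tolloid-family protease gene whose product cuts chordin and procollagen, had 180.8, 187 and 243.1 CPM in FDM 1, 2 and 3, against 138, 103.9 and 161 CPM in NC 1, 2 and 3. The lowest FDM library lay above the highest NC library, but not after total-count scaling. With TMM scaling, 2.73% of all genes tested had all FDM libraries above all NC libraries. For Bmp1 the log2 fold change was 0.60 ± 0.39 (SE), and leaving out FDM 3 gave 0.39. Kcp, a chordin-like secreted protein gene named after its values were seen, was the other gene of this kind, with 0.60 ± 0.45 (SE), 0.33 with NC 2 left out and an overlap after total-count scaling. The follistatin-like gene Fstl1 had 145.8, 322.7 and 767.2 CPM in FDM 1, 2 and 3, against 210.6, 135.8 and 327.2 CPM in NC 1, 2 and 3. The log2 fold change of Fstl1 was 0.88 ± 0.65 (SE) with all libraries and 0.0029 with FDM 3 left out. The level of Fstl1 was highest in FDM 3, the library with the highest fibroblast sum (58040 CPM). NC 1, with the next highest sum (50540 CPM), had less Fstl1 than FDM 2 and NC 3, whose sums were 14730 and 14360 CPM. The part of fibroblast RNA in the Fstl1 values was not tested.

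Of the ligands outside the 10, 3 of 10 in the table were tested, with 2 log2 fold changes above 0 and 0 past edgeR's test. Bmp6 had 15.9, 41.1 and 40.4 CPM in FDM 1, 2 and 3, against 31.2, 19.5 and 33.2 CPM in NC 1, 2 and 3, a log2 fold change of 0.21 ± 0.54 (SE). This was 0.54 with FDM 1 left out, 0.0055 with FDM 2 left out, -0.033 with FDM 3 left out, -0.021 with NC 2 left out and 0.0082 with total-count scaling. Like Bmp4, it was low in FDM 1 and above all NC libraries in FDM 2 and FDM 3. Gdf10 had 0, 0 and 44.6 CPM in FDM, against 15.7, 3.57 and 10.4 CPM in NC, and its log2 fold change of 0.59 ± 2.15 (SE) was -10.10 without FDM 3, where both remaining FDM libraries were at 0.

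Among other targets and ID partners, 7 of 10 log2 fold changes were above 0, with a median of 0.33 and 0 past edgeR's test. Atoh8, a helix-loop-helix gene induced by BMP signalling in endothelium and liver, had 46.1, 62.6 and 19.1 CPM in FDM 1, 2 and 3, against 0.978, 15.2 and 30.0 CPM in NC 1, 2 and 3. NC 3 lay above FDM 3, and the log2 fold change of 1.47 ± 0.99 (SE) was 0.91 without NC 1 and 0.77 without both libraries numbered 1. Id4, the remaining ID gene, had 44.2, 151.7 and 46.8 CPM in FDM, against 48.5, 74.6 and 101.8 CPM in NC. Its log2 fold change was 0.11 ± 0.56 (SE), -0.73 without FDM 2 and -0.16 with total-count scaling. Tcf4, which encodes an E protein bound by ID proteins, had 0.43 ± 0.43 (SE), and -0.03 without FDM 3. Hey1, a Notch and BMP target named after its values were seen, had 0, 4.98 and 5.27 CPM in FDM, against 7.14, 8.04 and 14.1 CPM in NC, with all FDM libraries below all NC libraries, which held for 2.81% of all genes tested. The log2 fold change of Hey1 was -1.51 ± 1.62 (SE), or -0.93 with FDM 1 left out and -3.09 in limma-voom.

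**Figure D4:**
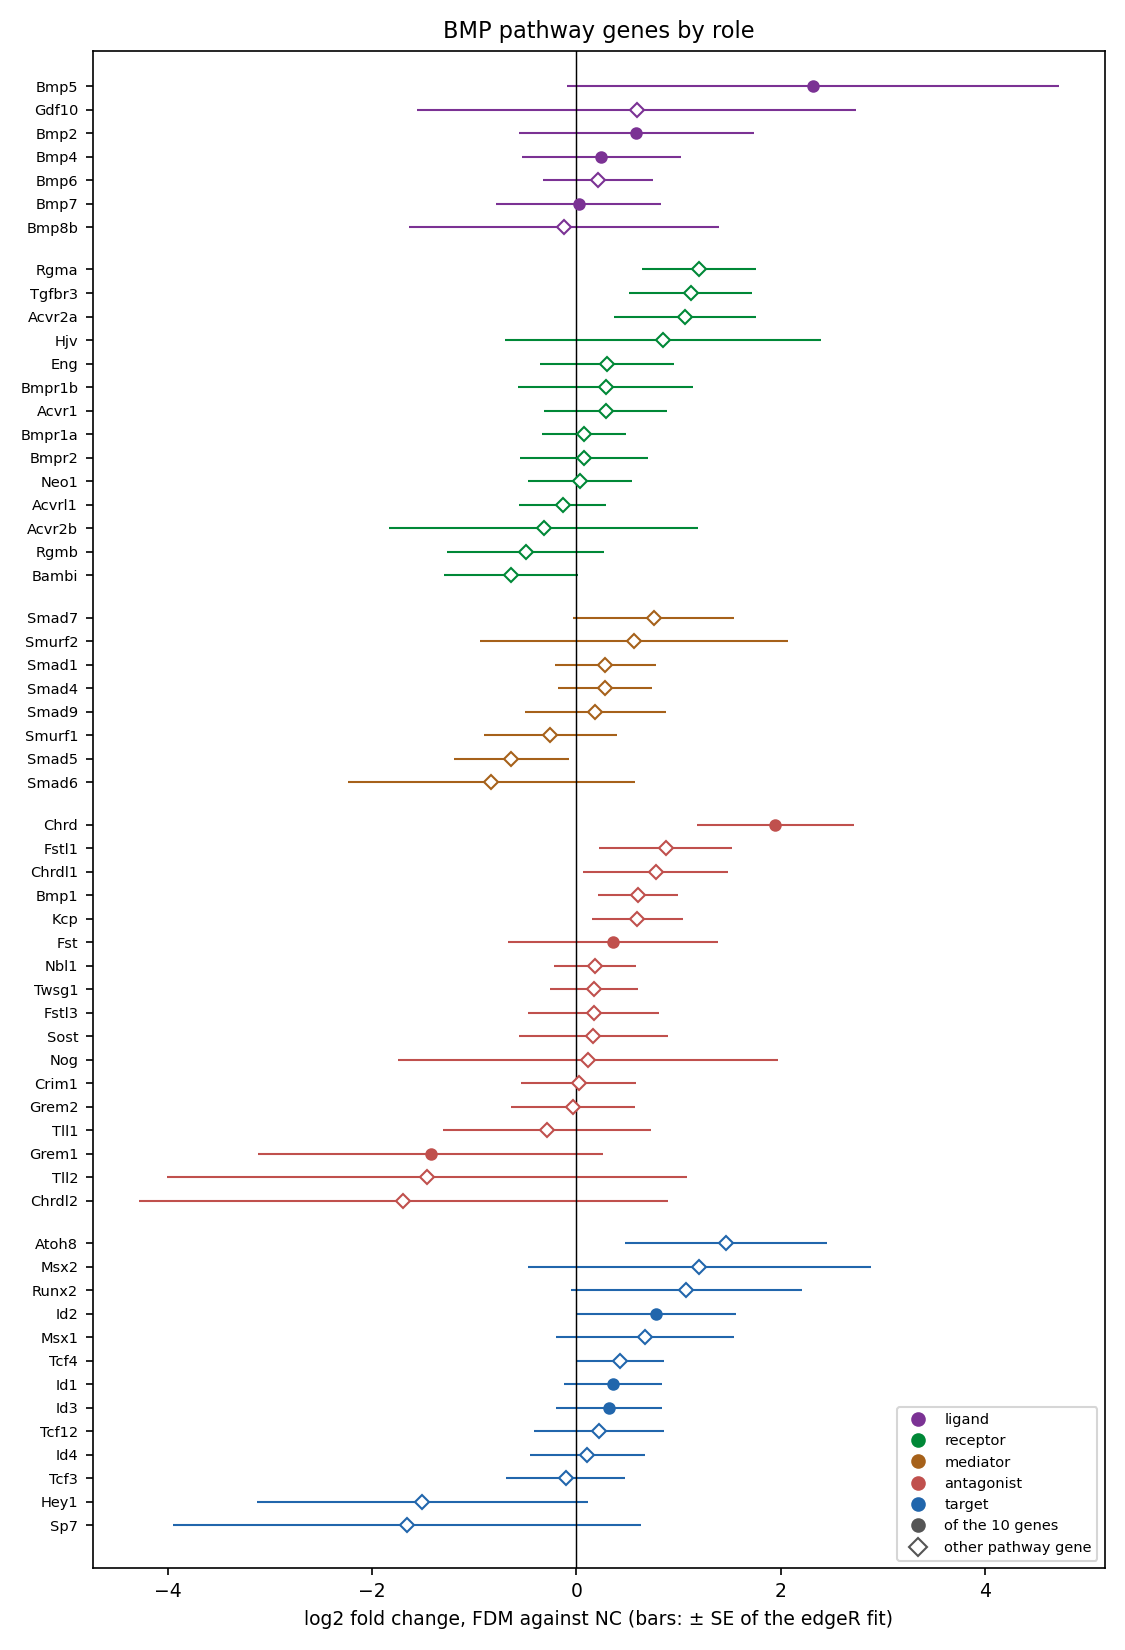
Log2 fold change (FDM over NC) ± SE of the edgeR fit for the 59 tested BMP pathway genes, grouped by role, with the 10 genes as filled circles and the others as open diamonds. Chrd, at 1.95 ± 0.77, lies well to the right of 0, and the bars of most other genes, Id1 (0.36 ± 0.48) and Id3 (0.32 ± 0.52) among them, cross 0.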

How the data were processed

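The authors deposited a table of unnormalised read counts with 1 column for each of the 6 libraries, made with Trimmomatic, STAR and HTSeq, per the submitters' processing notes. Trizol was used for the RNA and a NEBNext Ultra kit for the libraries, per the labels' protocols. The sources used here give no version, genome build, annotation or strand setting, so a gene's reads may include those of an overlapping or antisense gene. Column totals were 10377397 to 17534982. For lack of transcript lengths, levels of different genes were not compared per length. The sums and count ratios over genes thus reflect gene length as well as abundance.

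The main analysis used edgeR 4.0.16 in R 4.3.3, with limma 3.58.1 and DESeq2 1.42.0 as alternatives. Figures were drawn with matplotlib 3.10.9. Genes passing filterByExpr (16348 of 32193, all 10 members included) were scaled by TMM and tested with edgeR's robust quasi-likelihood test, group as the only term, with Benjamini-Hochberg adjustment over all genes tested and a threshold of 0.05. The SE of a log2 fold change was derived from its size and the test's F value. Log2 CPM used a prior count of 2. SDs measure the spread between these libraries. The SE and p-value of edgeR's test weigh a group difference against a variance estimated from these libraries and moderated over all genes. The code was tested on simulated data, with pass conditions set only for a spread between libraries far below that of these data. That test does not show which changes could be called here.

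The 10 genes, the pathway list and the 12 marker lists were chosen with earlier results of these data known. Text names the 10, and per role of the pathway list the 2 genes of smallest p and the 2 of highest mean CPM, some of which are left out, with the 3 genes most like a member. Bmp8a and Bmper were not analysed here. Alternatives were DESeq2, limma-voom, 3 scalings, 2 filters, the replicate number as a block, each library left out, and both libraries numbered 1 left out. No batch is named in the labels.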

Additional observations from a re-analysis of the deposited data

How the results depend on the processing

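The number of the 10 genes and of the pathway genes called was 0 under each of the 15 alternatives, and the number of all genes called was 0 except in DESeq2, which gave 24. Of 150 log2 fold changes of the 10 genes under the alternatives, 136 kept their sign and 14 did not. None passed the threshold, but Bmp5 had no p-value in DESeq2 and so could not pass there. Chrd, Grem1, Bmp2 and Id1 kept their sign throughout. Bmp7 was -0.21 with total-count scaling, -0.010 with no filter and -0.045 without both libraries numbered 1. With single libraries left out, Bmp7 ran from -0.65 to 0.68, Bmp4 from -0.056 to 0.55, Bmp5 from -1.84 to 2.89, Fst from -0.31 to 0.86, Id2 from -0.42 to 1.25 and Id3 from -0.025 to 0.61. Deviations from group means correlated across genes with r of 0.095, 0.034 and -0.152 for the pairs numbered 1, 2 and 3. Pairs of unlike number ran from -0.222 (FDM 1 with NC 2) to 0.261 (FDM 3 with NC 2). With 3 libraries a group, these values cannot tell whether the replicate numbers pair the libraries. With the replicate number as a block, 0 genes were called, Fst was -0.025 and Chrd 1.97. The cause of these shifts was not tested. The common biological coefficient of variation was 0.933 with 3 libraries a group. Id1 and Id3 had at least 1036 and 1787 counts in every library, whereas Bmp5 and Grem1 were at 0 in some.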

Other observations

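Several BMP pathway genes had counts in too few libraries to be tested. Gdf2, which encodes BMP9, a ligand made mainly by the liver, had 0, 0 and 15.4 CPM in FDM 1, 2 and 3, against 0, 14.8 and 0 CPM in NC 1, 2 and 3. Dlx5, a homeobox gene of bone formation, had 14.8, 0 and 2.70 CPM in FDM, while all 3 NC libraries were at 0. Bmp3 had 0, 0 and 1.38 CPM in FDM, against 0, 0.181 and 0.834 CPM in NC, and Bmp10 had no count in any library.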
